A study of Homo sapiens with 32 samples.

Results

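THP-1 cells, a human monocytic leukaemia line, were treated for 24 h with transforming growth factor β1 (TGFβ1) at 1 ng/ml, and their RNA was compared with that of cells given phosphate-buffered saline (PBS) as the control. The comparison rests on the 8 arrays titled for TGFβ1 and the 8 titled for PBS, which are 16 of the 32 arrays of the series. The other arrays held cells given LPS, the bacterial endotoxin sensed by TLR4, at 100 ng/ml together with TGFβ1, or LPS alone, 8 arrays each. They show what TGFβ1 did when LPS was also present. They also enter the fit, so their spread is part of the standard errors and p-values given for TGFβ1 against PBS. The filter of dim probes, the choice of each gene's probe and the split of arrays described below used them as well. All cells came from 1 line, were grown in medium with mercaptoethanol and antibiotics, and were held overnight in low serum before the agents were added, the PBS cells included. Whether each array had its own culture is not in the labels, and the p-values therefore reflect variation among arrays that could be technical only. Each chip held 2 arrays of every treatment. The labels place TGFβ1 and PBS at different fixed positions of the chip, so position and treatment cannot be told apart. Some LPS+TGFβ1 arrays carry position labels of TGFβ1 arrays, so a typing error in the labels is possible.

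TGFβ1 binds a pair of serine/threonine kinase receptors, TGFBR2 and TGFBR1, which phosphorylate SMAD2 and SMAD3. These join SMAD4, enter the nucleus and act on genes together with other transcription factors, and some of the genes they raise, such as SMAD7 and PMEPA1, damp the pathway. In blood monocytes and tissue macrophages the cytokine is known as a brake on inflammation and as a signal for the identity of microglia and other resident macrophages. In myeloid leukaemia lines it is also known to slow growth and to favour maturation.

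The arrays measured 24518 probes, and 12310 to 13296 of them were above background on an array. Intensities are the deposited values on a linear scale, and changes are differences of log2(intensity + 50), which understate the change of dim genes. Of 12 monocyte lineage markers on the array, all 12 were above background on all 16 arrays, among them SPI1, CSF1R, CD68 and ITGB2, and their summed intensity was 58103 to 75345 with TGFβ1, against 32185 to 52837 with PBS. Markers of other lineages were mostly dark: of 10 T and NK cell markers 8 were above background on no array, and the same held for 3 of 5 B cell, 6 of 7 erythroid and megakaryocyte, 9 of 13 fibroblast, epithelial and endothelial, and 3 of 7 granulocyte markers. Their summed intensities overlapped between the groups, at 679 to 857 with TGFβ1, against 535 to 859 with PBS, for the T and NK list, and at 250.2 to 374 with TGFβ1, against 92.5 to 469 with PBS, for the fibroblast, epithelial and endothelial list. The granulocyte list summed to 3528 to 4484 with TGFβ1, against 2638 to 3868 with PBS, and CSF3R, which monocytes also express, averaged 3061 of this with TGFβ1 and 2617 with PBS. CXCR2, a chemokine receptor of neutrophils and some monocytes, was the 1 granulocyte marker that rose, with a mean of 539 with TGFβ1 and 397 with PBS, a log2 change of 0.39 ± 0.12 (adjusted p = 0.0199) that was lost without the arrays named below as standing apart (adjusted p = 0.0591). CDH1, the epithelial cadherin, was above background on 7 TGFβ1 arrays and 0 PBS arrays, with means of 59.8 and 21.1 in that order. It missed the threshold (adjusted p = 0.0978) and passed once replicate numbers entered the fit as a block (adjusted p = 0.0206). It was named after its values were seen. The part of other cell types in the results was not tested. One array in each group stood apart: for 15 small subunits of the mitochondrial respiratory complexes and ATP synthase, chosen after their values were seen, TGFβ1 replicate 6 averaged 0.78 log2 units and PBS replicate 8 1.56 log2 units below the other arrays of its group. Results that rest on these arrays are also given without both.

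TGFβ1 changed a limited part of what the array measured, with more rises than falls of at least 2-fold. With limma (adjusted p under 0.05 over all 18388 probes tested), 1386 probes were higher with TGFβ1 than with PBS (7.54% of those tested) and 1048 were lower (5.7%). At least 2-fold rises were found for 278 probes (1.51%) and at least 2-fold falls for 65 (0.353%). All 8 TGFβ1 arrays lay above all 8 PBS arrays for 747 probes (4.06%) and below them for 338 (1.84%). Counted as genes by their brightest probe, 1105 of 13386 rose (8.25%) and 830 fell (6.2%). Each count of a gene list below is to be read beside these shares, and no list was tested as a set. The lists and their members were chosen with earlier results of these data known. A count above these shares is therefore a description of the list and no test of it. The replicate numbers of the titles were taken to pair the arrays, which these data cannot decide. A fit with the replicate number as a block brought the lower calls to 1738 probes and the higher calls to 1799. The arrays also split in 2 on the leading principal component of what the treatments leave unexplained, a split drawn from these data that is no group of the study. TGFβ1 and PBS replicates 1, 3 and 4 lay on 1 side and the other 5 of each group on the other. Fits within a side called 1794 probes higher and 1512 lower for the 3 pairs, and 1762 higher and 2062 lower for the 5 pairs. The median probe changed by -0.04 and the median gene by -0.03 on the log2 scale.

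The 15 genes with the largest rises were C3, OLR1, NPTX1, DNASE2, RGS16, VASH1, RGS1, ALOX5, LIPG, ALOX5AP, ANTXR1, AXL, PDPN, CCL20 and PLXDC2. For each of them the lowest TGFβ1 array exceeded the highest PBS array. Below, 3 intensities of a group are always the lowest, the median and the highest of its 8 arrays. C3, the central component of complement, read 1364, 1819 and 2587 with TGFβ1, against 8.75, 30.9 and 46.9 with PBS. It was below background on all 8 PBS arrays, so its rise is given as at least 21.2-fold (adjusted p = 3.19e-22). DNASE2, the acid nuclease of lysosomes, read 2746, 3635 and 5299 with TGFβ1, against 99.2, 116 and 169 with PBS, a log2 change of 4.50 ± 0.18 (adjusted p = 6.65e-20). VASH1, a secreted inhibitor of angiogenesis with carboxypeptidase activity on tubulin, read 2056, 2281 and 2979 with TGFβ1, against 79.2, 103 and 135 with PBS. Its log2 change was 3.99 ± 0.10 (adjusted p = 1.43e-25).

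**Figure D1:**
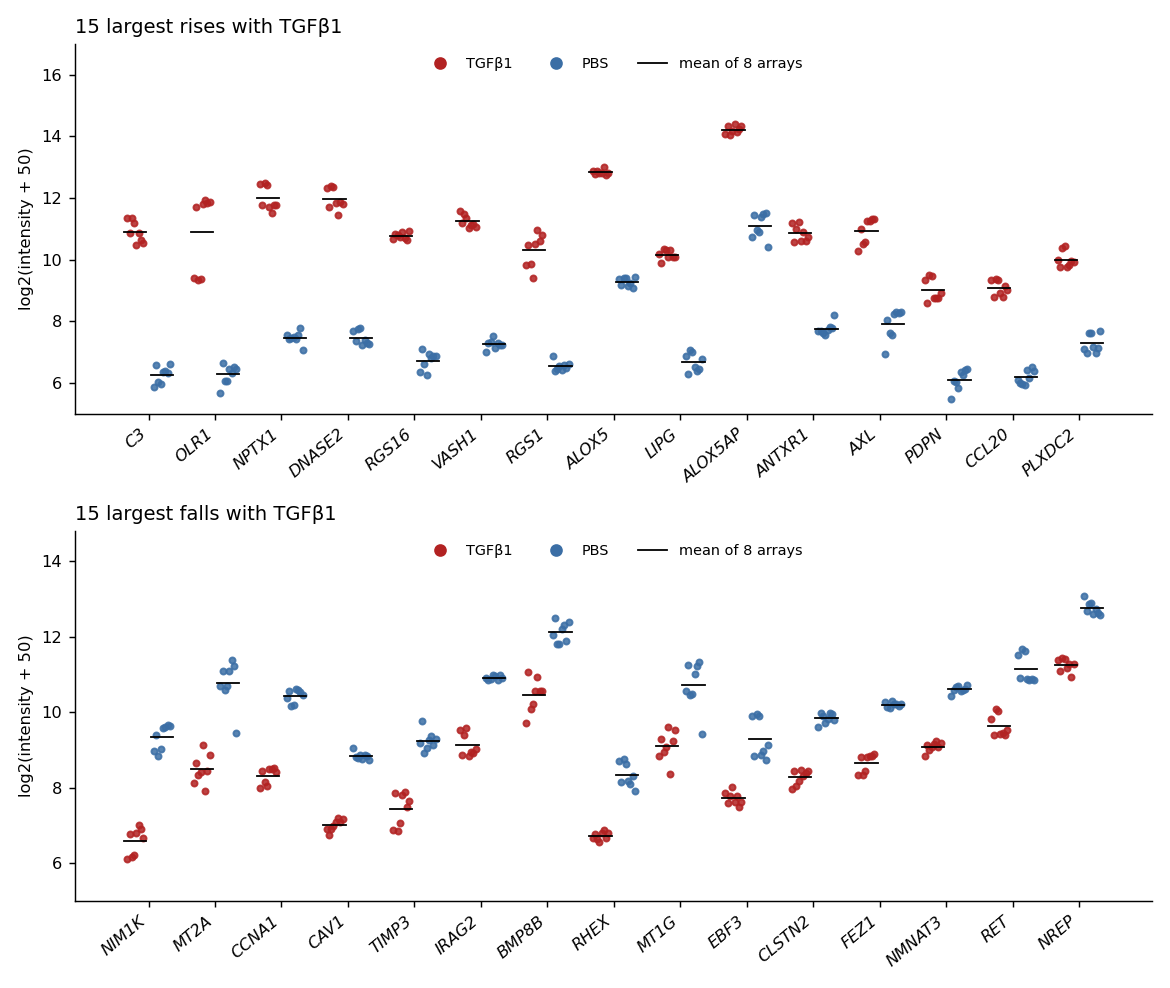
Array values of the 15 genes with the largest rises (upper panel) and the 15 with the largest falls (lower panel), as log2(intensity + 50), with the 8 TGFβ1 arrays in red to the left of the 8 PBS arrays in blue and the mean of 8 arrays as a bar. All points of the rising genes are separate between the groups; among the falling genes only MT1G overlaps, through 1 low PBS array.

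Of the regulators of G protein signalling, GTPase-activating proteins that shorten signals from chemokine and other receptors, RGS16 and RGS1 rose most. RGS16 read 1559, 1695 and 1892 with TGFβ1, against 25.9, 64.4 and 85.8 with PBS, and RGS1 read 631, 1379 and 1923 with TGFβ1, against 32.8, 41.5 and 66.1 with PBS. The log2 changes were 4.05 ± 0.16 (adjusted p = 7.98e-20) for RGS16 and 3.76 ± 0.25 (adjusted p = 7.38e-14) for RGS1. RGS1 was above background on 4 of the 8 PBS arrays, so its fold is understated. RGS19 and RGS10 rose as well, by 1.09 ± 0.12 (adjusted p = 1.08e-08) and 0.73 ± 0.13 (adjusted p = 4.00e-05). In all, 6 of 20 tested RGS proteins, G protein subunits and related regulators rose and 0 fell, against 8.25% and 6.2% of all genes. The list median was 0.15 against -0.03 over all genes. With the replicate number as a block 8 rose and 2 fell.

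LIPG, the endothelial lipase that acts on HDL phospholipids, read 894, 1071 and 1252 with TGFβ1, against 27.9, 49.9 and 84 with PBS, a log2 change of 3.49 ± 0.28 (adjusted p = 7.33e-12), with 4 of 8 PBS arrays above background. ANTXR1, a collagen-binding receptor of anthrax toxin, read 1478, 1754 and 2357 with TGFβ1, against 137, 159.7 and 247 with PBS, a log2 change of 3.10 ± 0.10 (adjusted p = 5.51e-22). Its 2 other probes rose by 0.95 and 1.02. PDPN, a mucin-type membrane glycoprotein and ligand of CLEC-2, read 337, 408 and 667 with TGFβ1, against -5.91, 21.5 and 37.6 with PBS. It was dark on all 8 PBS arrays and rose at least 5.68-fold (adjusted p = 4.05e-12); a second probe for PDPN was above background on no array. PLXDC2, a plexin domain membrane protein, read 811, 925 and 1340.1 with TGFβ1, against 75.7, 90.6 and 155 with PBS, a log2 change of 2.72 ± 0.12 (adjusted p = 2.82e-18). All 4 genes were separate between the groups on every array.

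The sequences before the start sites of some of these genes are shown because TGFβ signals reach DNA through SMAD3 and SMAD4, which bind short CAGA motifs. The 250 bases upstream of the annotated start were searched for CAGACA on both strands, in RefSeq promoters of GRCh38.p14. Of the 15 genes with the largest rises, 8 had 1 start site in the RefSeq table used here, and ALOX5AP, DNASE2 and RGS1 of these held the letters. The matches are in capitals below, with SPP1, described further on, added. TGTCTG is the same motif on the other strand. RGS1 is shown from chr1:192575648-192575772 and SPP1 from chr4:87975589-87975713, both on the plus strand, and ALOX5AP from chr13:30713360-30713484, also plus, each for the part of the window next to the start. DNASE2 lies on the minus strand, and the part farther from the start is shown, at chr19:12881575-12881699.
RGS1: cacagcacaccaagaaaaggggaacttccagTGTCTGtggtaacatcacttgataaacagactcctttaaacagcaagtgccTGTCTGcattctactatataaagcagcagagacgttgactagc
SPP1: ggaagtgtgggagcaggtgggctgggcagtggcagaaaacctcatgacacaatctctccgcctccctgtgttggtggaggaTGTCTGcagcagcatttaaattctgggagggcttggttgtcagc
ALOX5AP: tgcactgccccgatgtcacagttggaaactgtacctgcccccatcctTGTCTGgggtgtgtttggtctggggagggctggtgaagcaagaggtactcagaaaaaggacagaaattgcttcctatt
DNASE2: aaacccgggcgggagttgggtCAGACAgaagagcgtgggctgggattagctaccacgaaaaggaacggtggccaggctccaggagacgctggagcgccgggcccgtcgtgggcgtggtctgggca

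CAGACA was present in 10.4% of the 7779 tested genes with 1 start site, in 17.9% of the 117 that TGFβ1 raised at least 2-fold and in 16.7% of the 30 that it lowered at least 2-fold. The longer palindrome GTCTAGAC was present in 10 of the 7779 windows (0.129%) and in none of the 117 or the 30. The AP-1 motif TGANTCA was present in 4.13% of all windows, 7.69% of those of raised genes and 6.67% of those of lowered genes. These are letters in a window and say nothing of binding.

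The 15 largest falls were in NIM1K, MT2A, CCNA1, CAV1, TIMP3, IRAG2, BMP8B, RHEX, MT1G, EBF3, CLSTN2, FEZ1, NMNAT3, RET and NREP. NIM1K, a serine/threonine kinase, read 18.5, 55.2 and 78.8 with TGFβ1, against 411, 673 and 756 with PBS, a log2 change of -2.76 ± 0.23 (adjusted p = 1.69e-11), with 5 of 8 TGFβ1 arrays above background. CCNA1, the cyclin A of germ cells and of many myeloid leukaemias, read 206, 294 and 316 with TGFβ1, against 1087, 1401 and 1530.5 with PBS, a log2 change of -2.12 ± 0.11 (adjusted p = 7.56e-17). IRAG2, an endoplasmic reticulum membrane protein of lymphoid and myeloid cells, read 409, 456 and 713 with TGFβ1, against 1784, 1868 and 1988 with PBS, a log2 change of -1.78 ± 0.20 (adjusted p = 2.65e-08). RHEX, a regulator of erythroid cell expansion downstream of the erythropoietin receptor, read 45, 55.6 and 67.2 with TGFβ1, against 188, 254 and 383 with PBS, a log2 change of -1.62 ± 0.18 (adjusted p = 1.25e-08). In each of these 4 genes the highest TGFβ1 array lay below the lowest PBS array.

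NREP, a small protein of regenerating neurons, read 1912, 2434 and 2697 with TGFβ1, against 6068, 6606 and 8547 with PBS, a log2 change of -1.51 ± 0.12 (adjusted p = 1.74e-11). RET, the receptor tyrosine kinase for the GDNF family, read 624, 665 and 1026 with TGFβ1, against 1788, 1853 and 3227 with PBS, a log2 change of -1.51 ± 0.22 (adjusted p = 4.19e-06), and its 2 other probes fell by 1.40 and 1.34. FEZ1, an adaptor of kinesin transport, read 272, 399 and 423 with TGFβ1, against 1048, 1141 and 1198 with PBS, a log2 change of -1.54 ± 0.11 (adjusted p = 2.57e-13); another of its probes fell by 1.30, while the remaining one moved by -0.11 and missed the threshold (adjusted p = 0.368). CLSTN2, a synaptic cadherin-like protein, EBF3, a transcription factor, and NMNAT3, a mitochondrial NAD-synthesising enzyme, had log2 changes of -1.57 ± 0.17 (adjusted p = 7.46e-09), -1.57 ± 0.16 (adjusted p = 3.06e-09) and -1.52 ± 0.12 (adjusted p = 6.60e-12). BMP8B, a bone morphogenetic protein, read 784, 1461 and 2109 with TGFβ1, against 3549, 4417 and 5693 with PBS, a log2 change of -1.65 ± 0.31 (adjusted p = 2.04e-04). All 7 genes were separate between the groups.

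TGFβ1 changed the genes of its own pathway at several steps. Of 20 tested ligands, receptors, co-receptors and latency proteins, 5 rose and 3 fell, against 8.25% and 6.2% of all genes. The other 12 did not pass, and the median log2 change was 0.01. Both chains of the TGFβ receptor rose. TGFBR2, the chain that binds the ligand, read 1420.4, 1523 and 1726 with TGFβ1, against 627, 684 and 831 with PBS, a log2 change of 1.08 ± 0.08 (adjusted p = 2.91e-13). A second, dimmer TGFBR2 probe had a log2 change of 0.15 that did not pass (adjusted p = 0.154). TGFBR1, the signalling chain, read 154, 196 and 251 with TGFβ1, against 32.9, 55.3 and 67.9 with PBS, with 7 of 8 PBS arrays above background, a log2 change of 1.28 ± 0.10 (adjusted p = 2.32e-12). BMPR2, the type II receptor for bone morphogenetic proteins, ENG, a co-receptor best known from endothelium, and ACVR1, a type I receptor of the BMP branch, changed by 0.94 ± 0.14 (adjusted p = 7.67e-06), 0.73 ± 0.11 (adjusted p = 7.11e-06) and 0.43 ± 0.08 (adjusted p = 1.36e-04). The ACVR1 groups overlapped through PBS replicate 8, at 445.

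The falls were in TGFBR3, NRROS and TGFB3. TGFBR3, or betaglycan, which presents ligand to the receptor pair, read 149, 166 and 213 with TGFβ1, against 239, 296 and 428 with PBS, a log2 change of -0.70 ± 0.09 (adjusted p = 1.31e-07), with no overlap. NRROS, which holds latent TGFβ1 at the surface of myeloid cells, read 554, 742 and 828 with TGFβ1, against 826, 1111 and 1423 with PBS, a log2 change of -0.61 ± 0.13 (adjusted p = 8.50e-04), with overlapping groups. TGFB3, another ligand of the receptor, was dim, with 5 of 8 TGFβ1 arrays above background, and changed by -0.38 ± 0.08 (adjusted p = 8.19e-04). The TGFB1 probe was dark, above background on 0 of 16 arrays.

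Among the SMADs, the activating SMAD3 fell while the inhibitory SMAD6 and SMAD7 rose. SMAD3 read 300.5, 352 and 555 with TGFβ1, against 574, 649 and 1070.2 with PBS, a log2 change of -0.84 ± 0.17 (adjusted p = 3.40e-04), with no overlap. SMAD2, the other receptor-activated SMAD of the pathway, read 127, 159 and 215 with TGFβ1, against 121, 173 and 202 with PBS, a log2 change of -0.02 ± 0.09 (adjusted p = 0.947) that did not pass. SMAD7, which blocks the receptor, read 124, 179.6 and 208 with TGFβ1, against 25.2, 46.6 and 63.4 with PBS, and SMAD6, which inhibits mainly BMP signals, read 520.0, 598 and 621 with TGFβ1, against 243, 283 and 322 with PBS. Their log2 changes were 1.23 ± 0.11 (adjusted p = 2.13e-10) and 0.95 ± 0.13 (adjusted p = 9.29e-07), and neither overlapped.

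Other brakes of the pathway rose as well. PMEPA1, which sequesters receptor-activated SMADs, read 97.7, 108 and 215 with TGFβ1, against 9.66, 21.6 and 35.5 with PBS and was below background on all PBS arrays, a rise of at least 2.02-fold (adjusted p = 3.61e-09). Of its other 2 probes, 1 also rose and 1 was above background on no array. SKI, a SMAD co-repressor, read 290.5, 335 and 384 with TGFβ1, against 126, 136 and 159.8 with PBS, a log2 change of 1.04 ± 0.07 (adjusted p = 3.73e-14). TGIF1, a homeobox co-repressor, read 952, 1019 and 1126 with TGFβ1, against 442, 499 and 631 with PBS, a log2 change of 0.96 ± 0.06 (adjusted p = 7.24e-14), while its 3 other probes were near background and did not pass. SKIL, the relative of SKI, was above background on no array. ID2 rose, with 2626, 2906 and 3475 with TGFβ1, against 1234, 1389.7 and 1919.9 with PBS, a log2 change of 1.00 ± 0.11 (adjusted p = 1.05e-08), and ID1 rose slightly, by 0.32 ± 0.09 (adjusted p = 0.0109), with overlapping groups; the ID proteins are dimerising inhibitors of bHLH factors and are targets of BMP and TGFβ signals. Of 18 tested SMADs and feedback genes 7 rose and 1 fell, against 8.25% and 6.2% of all genes, with a median of 0.12. With the replicate number as a block 2 fell.

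**Figure D2:**
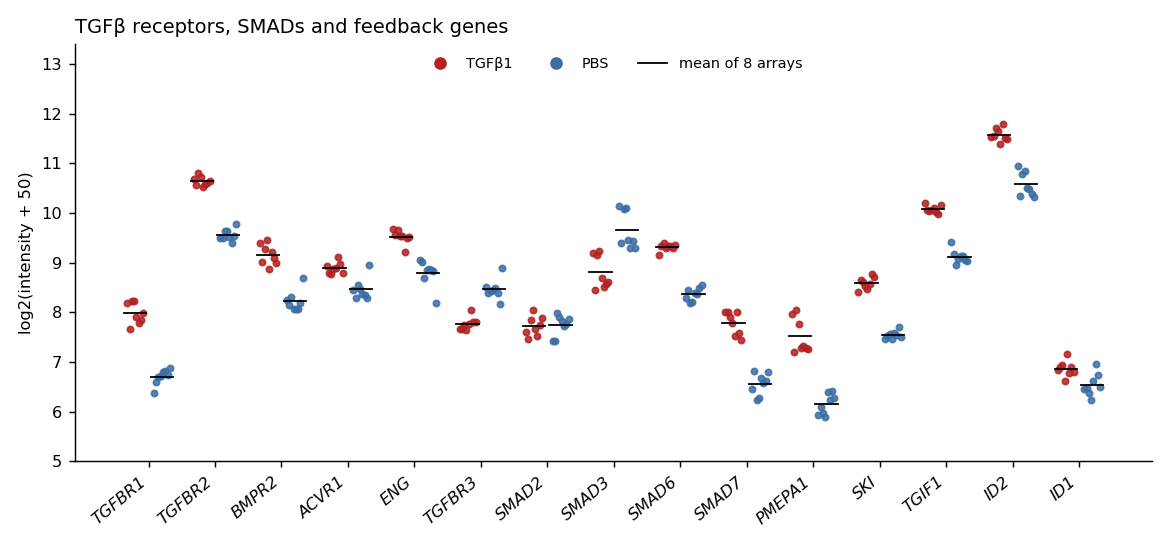
Array values of 15 receptors, SMADs and feedback genes as log2(intensity + 50), with TGFβ1 in red to the left of PBS in blue and bars at the mean of 8 arrays. SMAD3 and TGFBR3 are lower with TGFβ1, SMAD2 overlaps, and TGFBR1, TGFBR2, SMAD6, SMAD7, PMEPA1, SKI, TGIF1 and ID2 are higher on every TGFβ1 array than on any PBS array.

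Genes known as TGFβ targets in epithelial cells and fibroblasts gave a divided picture. Of 39 tested, 9 rose and 7 fell, against 8.25% and 6.2% of all genes. The median of -0.01 lay near that of all genes. BHLHE40, a transcriptional repressor, read 3284, 4356 and 4462 with TGFβ1, against 581, 918 and 1814 with PBS, and ITGAV, the integrin chain that binds and activates latent TGFβ, read 592, 781 and 919 with TGFβ1, against 221, 294 and 521 with PBS. Log2 changes came to 2.02 ± 0.20 (adjusted p = 8.87e-10) and 1.21 ± 0.10 (adjusted p = 3.93e-11), with no overlap in either. RUNX3, a SMAD partner, read 3695, 4735 and 5701 with TGFβ1, against 1887, 2445 and 2852 with PBS, a log2 change of 0.94 ± 0.29 (adjusted p = 0.0274) that did not pass without TGFβ1 replicate 6 and PBS replicate 8 (adjusted p = 0.0549). CCN2, the connective tissue growth factor that TGFβ raises in fibroblasts, was lower here, at 64.7, 96.3 and 237 with TGFβ1, against 173, 208 and 606 with PBS, a log2 change of -0.90 ± 0.21 (adjusted p = 0.00186) with overlapping groups. JUN, a subunit of AP-1, changed by -0.58 ± 0.13 (adjusted p = 0.00137). The cell cycle inhibitors CDKN1A and CDKN2B, which TGFβ raises in epithelial cells, fell by small amounts, with log2 changes of -0.39 ± 0.09 (adjusted p = 0.00271) and -0.21 ± 0.06 (adjusted p = 0.00881), and MYC changed by -0.45 ± 0.12 (adjusted p = 0.00671). RUNX3, CCN2 and JUN were named after their values were seen.

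Rises were frequent among genes that depend on TGFβ in resident macrophages, known mainly from mouse microglia. Of 19 tested, 9 rose and 0 fell, against 8.25% and 6.2% of all genes, and 10 did not pass. All TGFβ1 arrays lay above all PBS arrays for 9 genes, against 4.06% of all probes. With the replicate number as a block 1 fell. TREM2, a lipid-sensing receptor of microglia and lipid-laden macrophages, read 683, 739.9 and 945 with TGFβ1, against 55.4, 91.5 and 123 with PBS, a log2 change of 2.54 ± 0.12 (adjusted p = 1.11e-17). TYROBP, its signalling adaptor, read 9366, 12853 and 14232 with TGFβ1, against 2556, 8102 and 8600.0 with PBS, a log2 change of 0.85 ± 0.21 (adjusted p = 0.00427), which was 0.70 without the arrays that stood apart. SLCO2B1, an organic anion transporter, read 296, 425 and 452 with TGFβ1, against 16.6, 33.4 and 55.9 with PBS, a log2 change of 2.40 ± 0.20 (adjusted p = 2.32e-11), with 1 of 8 PBS arrays above background. OLFML3, a secreted olfactomedin-like protein, read 639.5, 770.2 and 1613 with TGFβ1, against 129, 174 and 386 with PBS, a log2 change of 1.91 ± 0.19 (adjusted p = 8.06e-10).

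Most of the other rises in that list were in receptors. CSF1R, the receptor that keeps macrophages alive, read 4887, 5479 and 6062 with TGFβ1, against 1509, 1792 and 2465 with PBS. CX3CR1, the fractalkine receptor, read 3101, 3486 and 3843 with TGFβ1, against 1134, 1509 and 1697 with PBS, a log2 change of 1.23 ± 0.15 (adjusted p = 1.08e-07). GPR183, a receptor for oxysterols, and MERTK, a receptor for dying cells, changed by 1.24 ± 0.20 (adjusted p = 1.63e-05) and 1.05 ± 0.29 (adjusted p = 0.0124). CX3CR1, GPR183 and MERTK were named after their values were seen. Of the 19, 3 were above background on no array. Of 33 macrophage surface markers in a wider list, 12 rose and 1 fell, against 8.25% and 6.2% of all genes. The median of this wider list was 0.20. OLR1, the scavenger receptor for oxidised LDL, led it, with 603, 3413 and 3838 with TGFβ1, against 1.07, 34.3 and 49.6 with PBS, and AXL, a receptor for phosphatidylserine-bridging GAS6, read 1183, 2189 and 2531 with TGFβ1, against 73.1, 234 and 267 with PBS.

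Genes of the myeloid progenitor stage included falls. SERPINB10, a serpin of myeloid progenitors, read 319.8, 392 and 649.8 with TGFβ1, against 672, 1014 and 1957 with PBS, FLT3, a receptor of early progenitors, read 180.3, 331 and 368 with TGFβ1, against 390.2, 663 and 754 with PBS, and MPO, the peroxidase of primary granules, read 72, 90.2 and 105 with TGFβ1, against 131, 147 and 171 with PBS. All TGFβ1 arrays lay below all PBS arrays in these genes. The log2 changes were -1.19 ± 0.21 (adjusted p = 8.63e-05), -0.91 ± 0.12 (adjusted p = 8.50e-07) and -0.51 ± 0.07 (adjusted p = 3.42e-06). CEBPA, the myeloid differentiation factor, rose by 0.29 ± 0.06 (adjusted p = 6.06e-04). These were the calls among 17 tested progenitor and granule genes, 1 up and 3 down, against 8.25% and 6.2% of all genes. With the replicate number as a block 2 of the 17 rose, and the list median was -0.11.

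Of the genes of leukotriene synthesis, ALOX5, ALOX5AP and LTC4S rose. ALOX5, the 5-lipoxygenase, read 6865, 7191 and 8245 with TGFβ1, against 490.1, 581 and 644 with PBS, a 11.8-fold rise or a log2 change of 3.57 ± 0.08 (adjusted p = 8.09e-26). ALOX5AP, the membrane protein that hands arachidonic acid to it, read 16705, 18877 and 21723 with TGFβ1, against 1321, 2268 and 2902 with PBS, a log2 change of 3.11 ± 0.15 (adjusted p = 8.83e-18). LTC4S, which adds glutathione to make leukotriene C4, read 2265, 3586 and 4259.5 with TGFβ1, against 349, 1153 and 1757 with PBS, a log2 change of 1.63 ± 0.26 (adjusted p = 1.54e-05), with no overlap. LTA4H, which makes leukotriene B4 from the same intermediate, had a log2 change of 0.02 ± 0.14 (adjusted p = 0.971) and missed the threshold. PTGS1, the constitutive cyclooxygenase, rose by 1.11 ± 0.16 (adjusted p = 2.82e-06). The inducible PTGS2 had a log2 change of -0.21 ± 0.35 (adjusted p = 0.798) that did not pass. Its fall passed in 1 of 31 alternative fits (limma, adjusted p = 0.0405). PTGER2, a prostaglandin E2 receptor, read 19.6, 49.8 and 62.9 with TGFβ1, against 92.9, 126 and 157 with PBS, a log2 change of -0.89 ± 0.10 (adjusted p = 1.41e-08). Over the list, 5 of 19 rose and 2 fell, against 8.25% and 6.2% of all genes. Without the arrays that stood apart 1 fell, and the list median was 0.02. LTA4H, PTGS2 and PTGER2 were named after their values were seen.

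C3 was the only rise among 20 complement genes and receptors tested. C1S, a protease of the classical pathway, read 33.6, 37.5 and 53.4 with TGFβ1, against 99.2, 117 and 186 with PBS, a fall (adjusted p = 7.31e-09) whose size is not given, since only 2 of 8 TGFβ1 arrays were above background. CD55, which disassembles the C3 convertase, read 125, 199 and 251 with TGFβ1, against 257, 294 and 396 with PBS, a log2 change of -0.52 ± 0.11 (adjusted p = 6.33e-04). Neither overlapped. The other 17 did not pass, and the list median was 0.01. Over all genes 8.25% rose and 6.2% fell.

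Lipoprotein and lipid handling genes included rises in APOC1, APOE, PPARG and LPL among 23 tested, with 1 fall and a median of 0.08. Over all genes 8.25% rose and 6.2% fell. APOC1, a small apolipoprotein, read 1231, 2189 and 2369 with TGFβ1, against 176, 572 and 690.0 with PBS, a log2 change of 1.97 ± 0.17 (adjusted p = 6.10e-11), which was 1.89 without the arrays that stood apart. APOE, the apolipoprotein that macrophages secrete with cholesterol, read 332, 401 and 502 with TGFβ1, against 118, 168 and 198 with PBS, a log2 change of 1.16 ± 0.15 (adjusted p = 2.18e-07). PPARG, the lipid-sensing nuclear receptor, read 1734, 2604 and 2946 with TGFβ1, against 814, 1105 and 1485 with PBS, and LPL, lipoprotein lipase, read 486, 768 and 921 with TGFβ1, against 251, 482 and 584 with PBS. Only the LPL groups overlapped. Log2 changes came to 1.13 ± 0.16 (adjusted p = 2.57e-06) and 0.76 ± 0.22 (adjusted p = 0.0166).

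Lysosomal and protease genes were a further set with many rises. Of 29 lysosomal genes 10 rose and 0 fell, against 8.25% and 6.2% of all genes. Their median was 0.26 against -0.03 over all genes. The cathepsins are proteases of the lysosome. CTSB read 3889, 4697 and 5571 with TGFβ1, against 951, 1292 and 1419 with PBS, CTSD read 1442, 1968 and 2405 with TGFβ1, against 480.4, 653 and 735 with PBS, and CTSH read 5381, 5911 and 6204 with TGFβ1, against 1813, 2322 and 2584 with PBS. Every TGFβ1 array lay above every PBS array in all of them. CTSD rose by 1.51 ± 0.16 (adjusted p = 4.70e-09) and CTSH by 1.35 ± 0.13 (adjusted p = 1.45e-09). Of 18 other proteases, receptors of proteases and inhibitors, 8 rose and 1 fell, against the same shares of all genes. With the replicate number as a block 3 fell. PLAUR, the urokinase receptor, read 1271, 1401 and 1556 with TGFβ1, against 398, 539.6 and 655 with PBS, and SERPINA1, the elastase inhibitor alpha-1 antitrypsin, read 182, 229 and 249 with TGFβ1, against 36.7, 80.2 and 92.8 with PBS. Their log2 changes were 1.30 ± 0.09 (adjusted p = 8.93e-14) and 1.20 ± 0.15 (adjusted p = 2.04e-07). ADAM19, a membrane metalloprotease, was dark on all 8 PBS arrays and rose at least 2.03-fold (adjusted p = 0.00944). TIMP3, an inhibitor of metalloproteases bound to matrix, fell, at 65.2, 140.4 and 188 with TGFβ1, against 431, 547 and 814 with PBS, a log2 change of -1.81 ± 0.28 (adjusted p = 6.66e-06) with no overlap.

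Matrix and adhesion genes were split between rises and background. Of 21 matrix genes tested 8 rose and 1 fell, against 8.25% and 6.2% of all genes. The list median was 0.01, and 7 of the 21 were above background on no array. SPP1, or osteopontin, a secreted integrin ligand of activated macrophages, read 2064, 4301 and 6117 with TGFβ1, against 442, 551 and 659.8 with PBS, a log2 change of 2.69 ± 0.22 (adjusted p = 9.37e-12). COL15A1, a basement membrane collagen chain, read 407, 541 and 595 with TGFβ1, against 47, 56.8 and 89.2 with PBS, a log2 change of 2.37 ± 0.11 (adjusted p = 2.82e-18). COL8A2, a short-chain collagen, read 1042, 1482 and 1553 with TGFβ1, against 255, 461 and 514 with PBS, and VCAN, the proteoglycan versican, read 204, 228 and 464 with TGFβ1, against 33.7, 51 and 71.1 with PBS. The log2 changes were 1.67 ± 0.12 (adjusted p = 1.08e-12) and 1.72 ± 0.27 (adjusted p = 1.22e-05), with no overlap in either.

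Integrin chains rose in part. ITGA5, the fibronectin receptor chain, read 2329, 2843 and 4061 with TGFβ1, against 951, 1092 and 1205 with PBS, a log2 change of 1.45 ± 0.10 (adjusted p = 1.14e-13). ITGA6, a laminin receptor chain, was dark on all 8 PBS arrays and rose at least 2.06-fold (adjusted p = 9.32e-13), at 96, 139 and 167 with TGFβ1, against -8.88, 16.2 and 26.3 with PBS. CAV1, the coat protein of caveolae, fell, at 56.7, 81.2 and 97.3 with TGFβ1, against 378, 403 and 479 with PBS, a log2 change of -1.83 ± 0.14 (adjusted p = 3.87e-12). The integrin and adhesion list had 7 rises and 4 falls among 26, against 8.25% and 6.2% of all genes, with a median of 0.10.

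**Figure D3:**
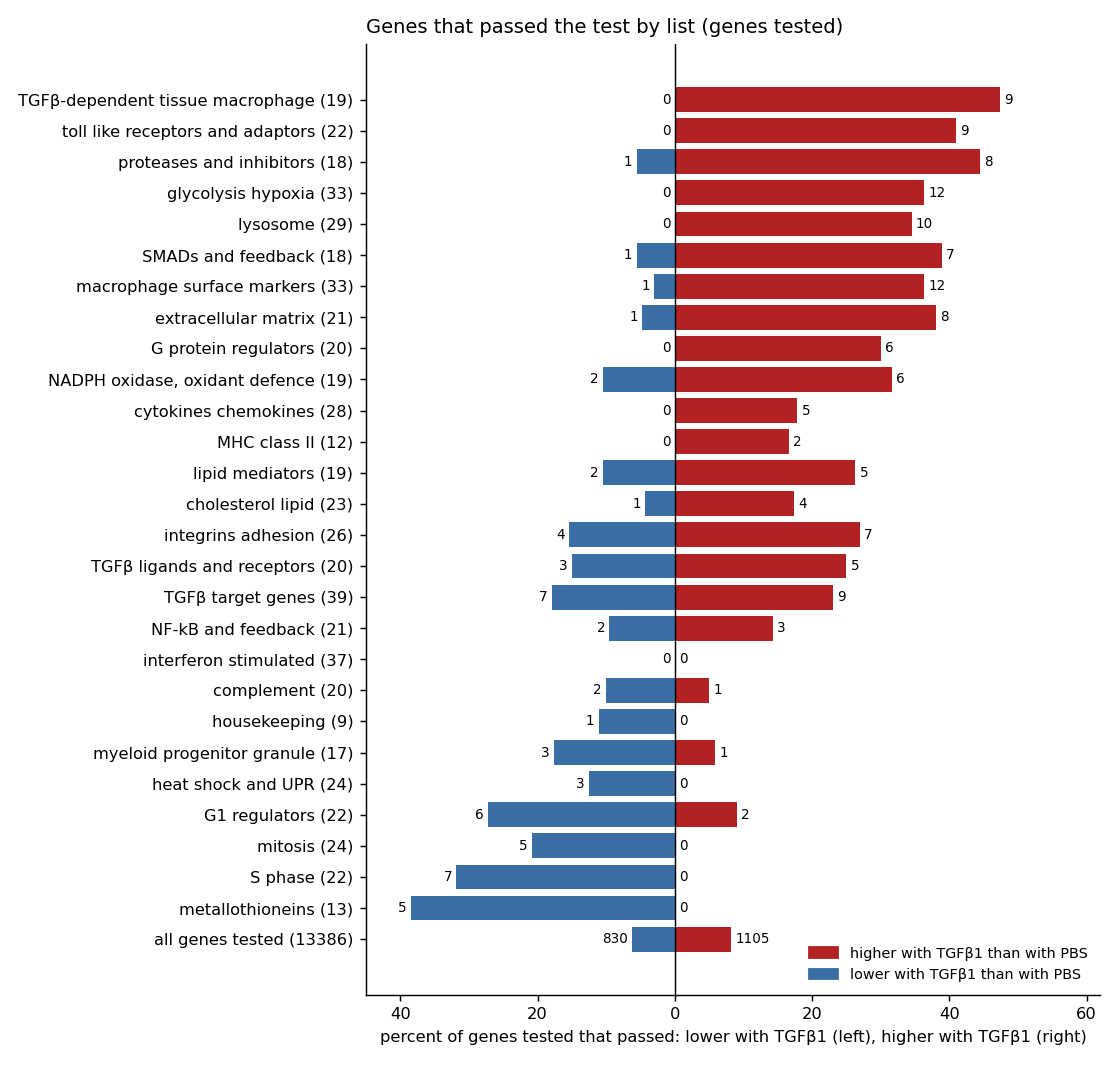
Percent of the tested genes of each list that passed the test, higher with TGFβ1 in red to the right and lower in blue to the left, with the number of genes at each bar and the number tested in brackets. All genes tested are at the bottom, and interferon-stimulated genes have no call in either direction.

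Several receptors and adaptors of innate sensing rose. Of 22 Toll-like receptors and adaptors 9 rose and 0 fell, against 8.25% and 6.2% of all genes. With the replicate number as a block 1 fell. CD14, which hands LPS to TLR4, read 834, 1097 and 1924 with TGFβ1, against 149, 341 and 437 with PBS, a log2 change of 1.94 ± 0.19 (adjusted p = 1.83e-09). LY96, the MD-2 chain that binds LPS on TLR4, read 188, 241 and 352 with TGFβ1, against 46.2, 79.8 and 101 with PBS, a log2 change of 1.22 ± 0.19 (adjusted p = 1.12e-05), and TLR6, a partner of TLR2, rose by 0.77 ± 0.09 (adjusted p = 6.73e-08). IRAK2, a kinase downstream of the receptors, rose by 0.86 ± 0.22 (adjusted p = 0.00681) with overlapping groups. TLR4 itself read 29.4, 136 and 202 with TGFβ1, against 75.8, 168 and 249 with PBS, a log2 change of -0.33 ± 0.31 (adjusted p = 0.61) that did not pass. TLR4 was lower with TGFβ1 in 8 of 8 same-numbered pairs, and the fall passed in 4 of 31 alternative fits, among them the replicate block in these 16 arrays only (adjusted p = 0.0036); with the block over all 32 arrays it did not (adjusted p = 0.111).

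Of 28 cytokines and chemokines tested 5 rose and 0 fell, against 8.25% and 6.2% of all genes, with a median of 0.05, and 1 fell with the replicate number as a block. CCL20, a ligand of CCR6, read 389, 489 and 612 with TGFβ1, against 10.8, 20.2 and 41 with PBS; it was dark on all 8 PBS arrays and rose at least 5.99-fold (adjusted p = 1.25e-08). OSM, oncostatin M, read 229, 275 and 431 with TGFβ1, against 53.8, 72 and 146 with PBS, a log2 change of 1.39 ± 0.15 (adjusted p = 7.04e-09). IL1B read 223, 284 and 331 with TGFβ1, against 32.7, 65.7 and 87.4 with PBS, with no overlap. CXCL8, a neutrophil chemoattractant, was bright in both groups and overlapped, at 6869, 14392 and 20812 with TGFβ1, against 5169, 5971 and 8514 with PBS, a log2 change of 1.11 ± 0.16 (adjusted p = 3.66e-06). TNF varied widely in both groups, at 253, 358 and 1665 with TGFβ1, against 308, 371 and 2992 with PBS, a log2 change of -0.33 ± 0.56 (adjusted p = 0.805) that did not pass. On the 3 pairs of the split TNF read 979 to 1665 with TGFβ1, against 1884 to 2992 with PBS, with no overlap. On the 5 pairs it read 253 to 390 with TGFβ1, against 308 to 387 with PBS. TNF was lower with TGFβ1 in 7 of 8 same-numbered pairs, and the fall passed in 1 of 31 alternative fits (limma, adjusted p = 0.0166). IL6 was dark on all 16.

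Of 21 NF-kB genes 3 rose and 2 fell, against 8.25% and 6.2% of all genes. Without the arrays that stood apart 1 fell, and the list median was -0.06. NFKBIE, an inhibitor of NF-kB, rose by 0.71 ± 0.11 (adjusted p = 9.68e-06). NFKBIZ, a nuclear co-activator of part of the NF-kB targets, fell, with a log2 change of -0.59 ± 0.08 (adjusted p = 6.86e-07). A second, dimmer NFKBIZ probe had a log2 change of -0.05 that did not pass (limma, adjusted p = 0.811). None of 37 interferon-stimulated genes passed limma's test in either direction, and none did with the replicate number as a block; their log2 changes ran from -0.65 to 0.96. At an unadjusted p under 0.05 the count was 1 of 37. Within the sides of the split 4 rose and 4 fell in the 3 pairs, and 8 rose and 3 fell in the 5 pairs. All TGFβ1 arrays lay above all PBS arrays for 2 of the genes and below them for 1, against 4.06% and 1.84% of all probes.

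The phagocyte oxidase rose at some of its parts. CYBB, its catalytic chain, read 930.2, 1090.3 and 1244 with TGFβ1, against 167, 209 and 281 with PBS, a log2 change of 2.13 ± 0.14 (adjusted p = 7.35e-14). NCF1, a cytosolic subunit with near-identical pseudogenes that the probe may not tell apart, read 610.3, 2228 and 2662 with TGFβ1, against 368, 461 and 664 with PBS, a log2 change of 1.55 ± 0.41 (adjusted p = 0.00749), and its groups overlapped. HMOX1, which degrades haem, was dark on all 8 PBS arrays and rose at least 2.24-fold (adjusted p = 1.87e-10), at 116, 135 and 239.9 with TGFβ1, against 20.2, 27.9 and 44.5 with PBS. CAT, catalase, fell, at 865, 1082 and 1556 with TGFβ1, against 1629.8, 2039 and 3302 with PBS, a log2 change of -0.97 ± 0.16 (adjusted p = 2.39e-05) with no overlap. Of 19 genes of the oxidase and of oxidant defence 6 rose and 2 fell, against 8.25% and 6.2% of all genes.

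MHC class II genes gave calls that depended on the fit. HLA-DMB and HLA-DMA, which load peptides on class II molecules, were the 2 of 12 tested that passed. Their log2 changes were 0.97 ± 0.32 (adjusted p = 0.0406) and 0.58 ± 0.18 (adjusted p = 0.0279). Over all genes 8.25% rose and 6.2% fell. With the replicate number as a block 6 rose, within the sides of the split 6 and 9 rose in the 3 and the 5 pairs, and without TGFβ1 replicate 6 and PBS replicate 8 none did (adjusted p of 0.0756 and 0.0718).

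Of 33 genes of glycolysis and the hypoxia response 12 rose, 0 fell and 21 did not pass. Over all genes 8.25% rose and 6.2% fell. The list median was 0.30 against -0.03 over all genes, and 21 rose within the 5 pairs of the split. PFKFB4, which makes the activator of phosphofructokinase, read 1260.4, 1493 and 1645 with TGFβ1, against 335, 604 and 947 with PBS, and SLC2A3, a glucose transporter, read 667, 739 and 856 with TGFβ1, against 339.7, 380.0 and 418 with PBS. Neither overlapped, and the log2 changes were 1.24 ± 0.14 (adjusted p = 3.75e-08) and 0.89 ± 0.09 (adjusted p = 8.25e-10). DDIT4, an inhibitor of mTOR raised by hypoxia, and HK2, a hexokinase, rose by 1.03 ± 0.16 (adjusted p = 6.75e-06) and 0.84 ± 0.26 (adjusted p = 0.0236) with overlapping groups.

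Genes of the cell cycle fell in part. Of 22 S phase genes 7 fell and 0 rose, with a median of -0.33. Of 24 mitosis genes 5 fell and 0 rose, with a median of -0.20. Over all genes 6.2% fell and 8.25% rose. With the replicate number as a block 9 mitosis genes fell. Within the sides of the split 15 S phase and 14 mitosis genes fell in the 3 pairs, and 17 and 6 in the 5 pairs. CDT1, which licenses replication origins, read 717, 915 and 1082 with TGFβ1, against 1167, 1364 and 1528 with PBS, a log2 change of -0.54 ± 0.13 (adjusted p = 0.0045) with no overlap. RRM2, a subunit of ribonucleotide reductase, read 326, 773 and 913 with TGFβ1, against 672, 1205 and 1902 with PBS, a log2 change of -0.77 ± 0.19 (adjusted p = 0.00533). BUB1, a kinase of the spindle checkpoint, changed by -0.43 ± 0.10 (adjusted p = 0.00211) and CDK1, the kinase of mitotic entry, by -0.37 ± 0.12 (adjusted p = 0.0373), both with overlapping groups. A second CDK1 probe had a log2 change of -0.35 that did not pass (adjusted p = 0.0912).

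Regulators of G1 moved in both directions. CDK6, a partner of D cyclins, read 3209.8, 3408 and 3670.1 with TGFβ1, against 5584, 5961 and 6895 with PBS, a log2 change of -0.81 ± 0.16 (adjusted p = 4.05e-04), while CCND1, cyclin D1, read 176, 240.0 and 435 with TGFβ1, against 40.9, 65.1 and 89.2 with PBS, a log2 change of 1.53 ± 0.23 (adjusted p = 4.93e-06). MXD1, an antagonist of MYC, read 513, 568 and 785 with TGFβ1, against 212, 241 and 280.0 with PBS, a log2 change of 1.21 ± 0.15 (adjusted p = 1.24e-07). None of these overlapped, and the G1 list had 2 rises and 6 falls among 22, against 8.25% and 6.2% of all genes. XBP1, a transcription factor of the unfolded protein response, also fell, at 3129, 3348 and 3476 with TGFβ1, against 6116, 6478 and 6985 with PBS, a log2 change of -0.96 ± 0.12 (adjusted p = 9.16e-08); 3 of 24 heat shock and unfolded protein response genes fell and 0 rose, or 5 fell with the replicate number as a block. In these bulk samples, fewer cells of a kind and less RNA per cell cannot be told apart.

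MT2A, MT1G, MT1E, MT1H and MT3 fell, 5 of the metallothioneins, small cysteine-rich proteins that bind zinc and copper. Of 13 tested genes, which included the metal-sensing factor MTF1 and 3 zinc carriers, 5 fell, none rose and 8 did not pass, with a median of -0.53; with the replicate number as a block 7 fell. MT2A read 189, 295 and 514 with TGFβ1, against 652, 1872 and 2627 with PBS, a log2 change of -2.29 ± 0.29 (adjusted p = 2.34e-07) or a fold of 4.9 lower. MT1G read 276, 522 and 734 with TGFβ1, against 635, 1743 and 2509 with PBS, MT1E read 675, 1413 and 1682 with TGFβ1, against 1039.9, 3347 and 3887 with PBS, and MT1H read 103, 128 and 173 with TGFβ1, against 143, 341 and 458 with PBS. Log2 changes came to -1.61 ± 0.26 (adjusted p = 1.51e-05), -1.18 ± 0.29 (adjusted p = 0.00394) and -1.06 ± 0.27 (adjusted p = 0.00661). PBS replicate 8 was the lowest PBS array in all 4 genes and made 3 of them overlap, and without it and TGFβ1 replicate 6 the changes were -2.40, -1.69, -1.26 and -1.16. MT3 was dark on all 8 TGFβ1 arrays and above background on 6 of 8 PBS arrays, and was named after its values were seen. MTF1 had a log2 change of -0.10 ± 0.14 (adjusted p = 0.75) and the zinc exporter SLC30A1 one of -0.03 ± 0.19 (adjusted p = 0.948); neither passed, and both were named after their values were seen. The metallothionein genes are close copies of each other, so probes may share signal.

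Metallothionein promoters hold metal response elements, the sites of MTF1, and 2 of these promoters are printed to show how densely the motif can lie. The core was searched as TGCACNC and TGCGCNC on both strands in the 250 bases before the start, and matches are in capitals. MT2A, at chr16:56608334-56608583 (plus strand, GRCh38.p14, RefSeq), held 7 matches, and MT1X, at chr16:56682220-56682469 (plus strand), held 4.
MT2A: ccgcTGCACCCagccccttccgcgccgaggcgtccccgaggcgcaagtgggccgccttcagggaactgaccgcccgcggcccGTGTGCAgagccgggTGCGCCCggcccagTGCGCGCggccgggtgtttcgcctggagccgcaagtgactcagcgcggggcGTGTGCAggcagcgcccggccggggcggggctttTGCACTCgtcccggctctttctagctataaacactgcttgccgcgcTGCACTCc
MT1X: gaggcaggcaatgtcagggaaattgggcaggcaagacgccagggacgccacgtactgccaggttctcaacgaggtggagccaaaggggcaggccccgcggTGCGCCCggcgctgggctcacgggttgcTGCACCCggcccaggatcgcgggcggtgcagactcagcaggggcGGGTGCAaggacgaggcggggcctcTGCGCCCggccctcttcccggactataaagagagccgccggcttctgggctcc

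MT1H held 8 matches and MT1B 3. At least 4 matches were present in 3 of the 4 metallothionein genes with 1 start site in the table, and in 43 of the 7779 tested genes with 1 start site (0.553%). At least 1 match was present in 31.9% of all windows and in 30% of the 30 windows of genes that TGFβ1 lowered at least 2-fold. MT1X had a log2 change of -0.68 ± 0.37 (adjusted p = 0.277) that did not pass, and was named after its value was seen. Its fall passed in 4 of 31 alternative fits (limma, lowest adjusted p = 5.28e-04). On the 3 pairs of the split MT1X read 866 to 949 with TGFβ1, against 1521 to 1622 with PBS. On the 5 pairs it read 695 to 1472 with TGFβ1, against 576 to 2834 with PBS. A match of letters is a description and not evidence of a site in use.

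LPS raised MT2A, MT1G, MT1E and MT1H, and TGFβ1 lowered them there too. For MT1E and MT1H the rise with LPS was small on the side of the split with replicates 1, 3 and 4, which also holds LPS replicate 7. There MT1E read 3267 to 3450 with LPS, against 3132 to 3379 with PBS, and MT1H 333 to 364 against 287 to 323. On the other side MT1E read 7794 to 8670 with LPS, against 1039.9 to 3887 with PBS, and MT1H 811 to 1088 against 143 to 458. MT2A averaged 10277 ± 4768 with LPS+TGFβ1, against 21779 ± 8879.7 with LPS (SD, n = 8 each), a log2 change of -1.15 ± 0.29 (adjusted p = 0.00444). Without LPS it averaged 319.9 ± 105 with TGFβ1, against 1821 ± 619 with PBS. MT1G, MT1E and MT1H changed by -1.46 ± 0.26 (adjusted p = 6.98e-05), -1.15 ± 0.29 (adjusted p = 0.00413) and -0.95 ± 0.27 (adjusted p = 0.0132). Of 13 genes of the list 7 were lower with LPS+TGFβ1 than with LPS and 0 higher, against 10.1% and 8.19% of all probes. LPS+TGFβ1 replicate 7 was the lowest of its group for all 4, with 3043 for MT2A and a next lowest of 6356, and it lay 0.83 log2 units below its group in the 15 small mitochondrial subunits. Without it the changes were -0.92 ± 0.26 (adjusted p = 0.0124) for MT2A, -1.28 ± 0.24 (adjusted p = 1.82e-04) for MT1G, -0.93 ± 0.27 (adjusted p = 0.0118) for MT1E and -0.76 ± 0.26 (adjusted p = 0.0382) for MT1H, a fit added after the data were seen.

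The LPS+TGFβ1 and LPS arrays show what TGFβ1 did beside LPS. The difference between these 2 groups did not choose the probes followed here. Their values did enter the filter of dim probes and the spread behind the p-values. Over all probes, 1506 were higher (8.19%) and 1861 lower (10.1%) with LPS+TGFβ1 than with LPS. Of the 278 probes that TGFβ1 alone raised at least 2-fold, 211 (75.9%) were also higher with LPS+TGFβ1 than with LPS, 7 (2.52%) were lower and 60 (21.6%) did not pass. Of the 65 probes that it lowered at least 2-fold, 41 (63.1%) were lower, none was higher and 24 (36.9%) did not pass. The median log2 change of the raised probes was 0.88 in the presence of LPS and that of the lowered probes -0.70, against 1.39 and -1.20 without LPS and -0.07 for all probes in the presence of LPS. Compared directly with LPS, 186 of the 278 probes were higher with TGFβ1 (66.9%, against 19.6% of all probes) and 53 lower (19.1%, against 22.8%); the TGFβ1 arrays enter both comparisons.

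**Figure D4:**
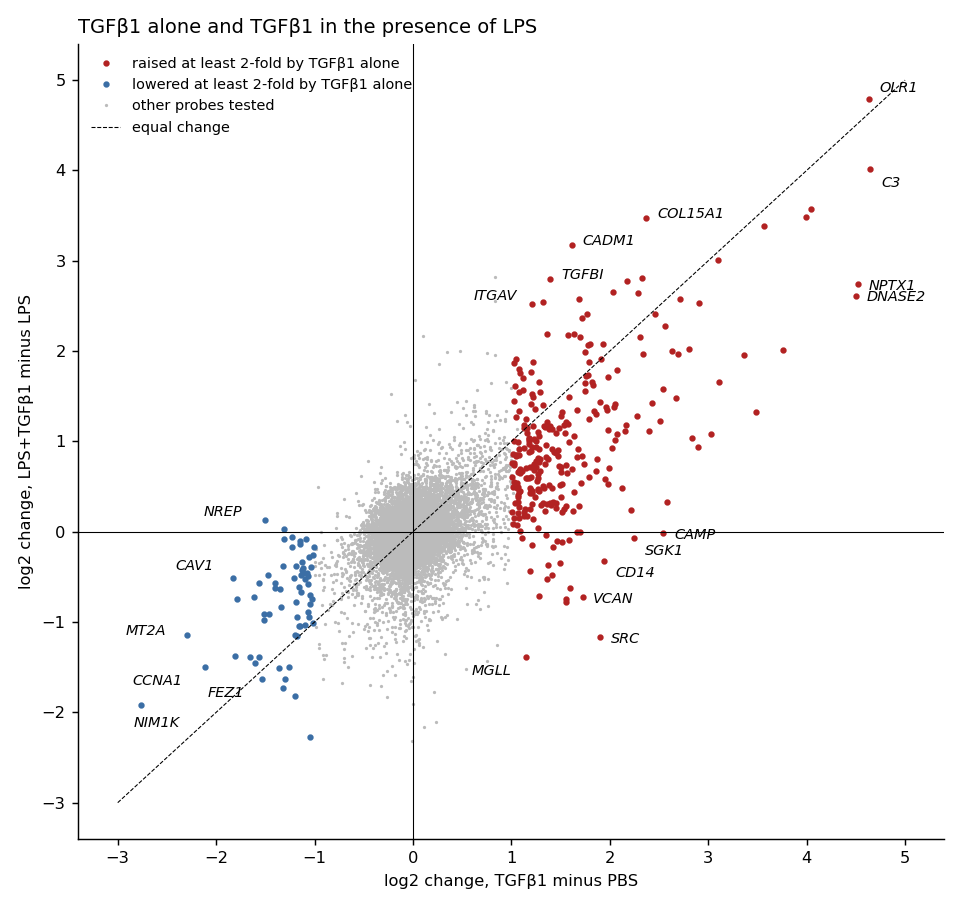
Log2 change of each of the 18388 probes with TGFβ1 against PBS (horizontal) and with LPS+TGFβ1 against LPS (vertical), with probes raised at least 2-fold by TGFβ1 alone in red, those lowered at least 2-fold in blue and the dashed line at equal changes. Most red points are above 0 on both axes, and SRC, MGLL, VCAN and CD14 are among those below 0 with LPS.

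Several of the largest changes also passed with LPS present. C3 averaged 3358 ± 589 with LPS+TGFβ1, against 164 ± 56.7 with LPS (SD, n = 8 each), a log2 change of 4.02 ± 0.15 (adjusted p = 1.80e-20). ALOX5 averaged 7925 ± 863 with LPS+TGFβ1, against 717 ± 130.2 with LPS, a log2 change of 3.39 ± 0.08 (adjusted p = 4.09e-25), and VASH1 4334 ± 298 with LPS+TGFβ1, against 348 ± 84.7 with LPS, a log2 change of 3.48 ± 0.10 (adjusted p = 1.11e-23). OLR1 changed by 4.79 ± 0.34 (adjusted p = 5.84e-13) and RGS16 by 3.57 ± 0.16 (adjusted p = 3.55e-18). NIM1K, the gene with the largest fall, changed by -1.92 ± 0.23 (adjusted p = 7.16e-08), and averaged 66.2 ± 24.3 with LPS+TGFβ1, against 439 ± 250.3 with LPS.

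The test of the difference between both effects, TGFβ1 with LPS minus TGFβ1 without, called 518 probes higher (2.82%) and 821 lower (4.46%). Of the 278 probes raised at least 2-fold, 129 were called lower (46.4%) and 15 higher (5.4%), and these probes were chosen on arrays that enter the test. TGFBI, a secreted matrix protein, changed by 1.39 without LPS and by 2.80 with it, a difference of 1.40 ± 0.15 (adjusted p = 3.88e-08). ITGAV changed by 2.52 with LPS, a difference of 1.31 ± 0.15 (adjusted p = 1.08e-07), and COL15A1 by 3.47, a difference of 1.10 ± 0.15 (adjusted p = 5.11e-06). CADM1, an adhesion molecule of the immunoglobulin family, read 169.5, 187 and 324 with TGFβ1, against 21.4, 40 and 60 with PBS; it averaged 1851 ± 434 with LPS+TGFβ1, against 159 ± 45.6 with LPS, a difference between the effects of 1.57 ± 0.21 (adjusted p = 4.63e-06).

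For another group of genes the rise was found without LPS only, and the difference between the effects was called. CAMP, the antimicrobial peptide cathelicidin, read 305, 557 and 783 with TGFβ1, against 12.2, 57.4 and 77.4 with PBS, a log2 change of 2.54 ± 0.17 (adjusted p = 7.39e-14). On the arrays with LPS it averaged 36.1 ± 12.9 with LPS+TGFβ1, against 37.3 ± 13.1 with LPS, above background on 4 of 8 LPS+TGFβ1 arrays and 1 of 8 LPS arrays. The effects were called different (adjusted p = 2.44e-09), and the size of that difference is not given because the signal with LPS is at background. SGK1, a kinase raised by serum and glucocorticoids, read 947, 1242 and 1529 with TGFβ1, against 179, 228 and 292 with PBS, a log2 change of 2.25 ± 0.10 (adjusted p = 3.66e-18). It averaged 10749 ± 1046 with LPS+TGFβ1, against 11442 ± 2165 with LPS, a difference between the effects of -2.32 ± 0.14 (adjusted p = 3.87e-13). SRC, a tyrosine kinase, read 542, 730.3 and 913 with TGFβ1, against 99.4, 162 and 208 with PBS, a log2 change of 1.90 ± 0.19 (adjusted p = 1.22e-09); it averaged 2042 ± 291 with LPS+TGFβ1, against 5109.7 ± 2357 with LPS, a log2 change of -1.17 ± 0.19 (adjusted p = 1.64e-05). The 2 other SRC probes were above background on no array. The 7 probes with a rise alone and a fall with LPS present were those of SRC, its relative FGR, MGLL, HMOX1, IL1B and an unnamed probe; FGR has 2 of them. The arrays with LPS split as well, with LPS+TGFβ1 and LPS replicates 1, 3, 4 and 7 on 1 side. On that side IL1B read 24017 to 31559.8 with LPS+TGFβ1, against 23774 to 29158 with LPS, a log2 change of 0.06 that did not pass (adjusted p = 0.77). On replicates 2, 5, 6 and 8 it read 10287 to 12992 with LPS+TGFβ1, against 27507 to 32816 with LPS, a log2 change of -1.31 (adjusted p = 8.99e-10). FGR and HMOX1 likewise passed on the second side only, with log2 changes of -0.59 and -0.93 there and -0.15 and -0.12 on the first. SRC changed by -0.39 and -1.95 and MGLL by -0.97 and -1.80, first and second side, and both passed on each. SGK1 changed by 0.25 (adjusted p = 0.138) and -0.39 (adjusted p = 0.00568) in the same order, and passed on the second side only. These fits were added after the data were seen, and whether the sides differ in this was not tested.

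Their levels show the crossing. FGR averaged 1568 ± 51.9 with TGFβ1, against 583 ± 92.2 with PBS, and 2394 ± 452 with LPS+TGFβ1, against 3057 ± 122 with LPS. MGLL, which splits monoglycerides such as the endocannabinoid 2-arachidonoylglycerol, averaged 125 ± 12.4 with TGFβ1, against 29.5 ± 10.5 with PBS, where all arrays were below background. With LPS+TGFβ1 it averaged 199 ± 22, against 618 ± 166 with LPS. Other, dimmer MGLL probes changed by 0.29 (limma, adjusted p = 0.214) and -0.08 (adjusted p = 0.797) with TGFβ1 alone and did not pass. CD14 and VCAN rose with TGFβ1 alone. In the fit to all 32 arrays their log2 changes beside LPS were -0.32 ± 0.19 (adjusted p = 0.26) and -0.73 ± 0.27 (adjusted p = 0.0602), and neither passed. Fits within the sides of the split, added after the data were seen, called VCAN lower on both. The first side gave -1.15 (limma, adjusted p = 1.22e-08) and the second -0.31 (adjusted p = 0.0197). A fall of CD14 was called on the second side only, at 6411 to 8349 with LPS+TGFβ1, against 12181 to 14418 with LPS. Its log2 change there was -0.75 (limma, adjusted p = 2.31e-05), while the first side gave 0.11, which did not pass. ADAP2, a GTPase activator for Arf proteins, rose by 1.70 ± 0.09 (adjusted p = 1.33e-16) alone and averaged 2489 ± 269.6 with LPS+TGFβ1, against 2507 ± 410.1 with LPS; the effects differed by -1.70 ± 0.12 (adjusted p = 1.44e-11).

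**Figure D5:**
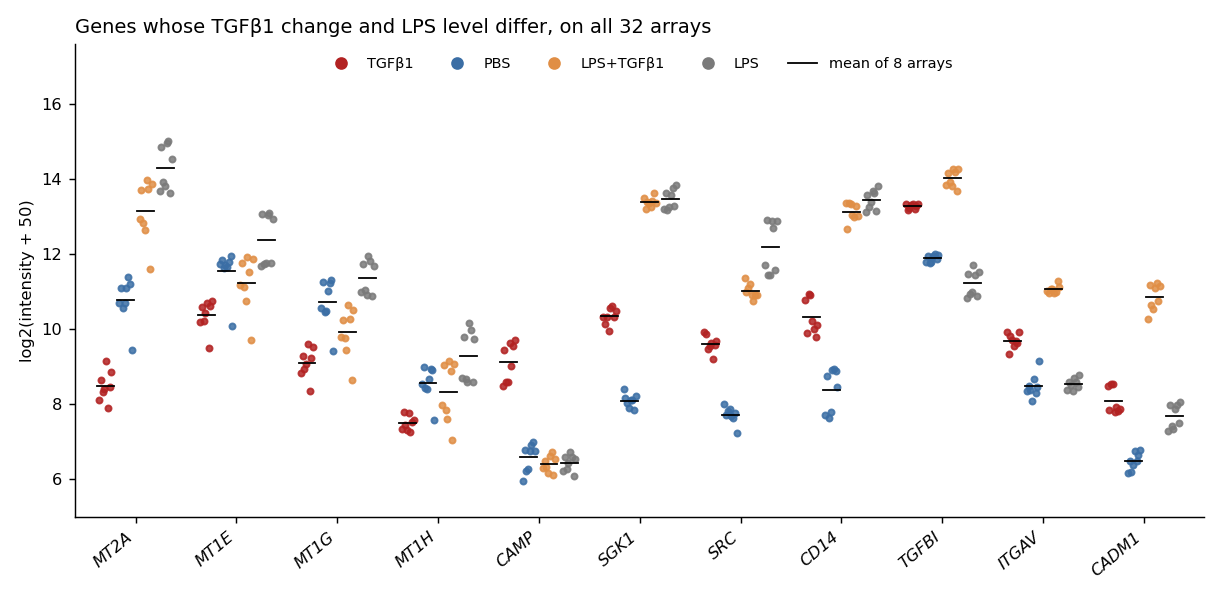
Array values of 11 genes as log2(intensity + 50) on all 32 arrays, in the order TGFβ1 (red), PBS (blue), LPS+TGFβ1 (orange) and LPS (grey), with bars at the mean of 8 arrays. The metallothioneins are lower with TGFβ1 in both pairs, CAMP is higher in the first pair and near background in the second, SRC is higher in the first pair and lower in the second, and TGFBI, ITGAV and CADM1 are higher in both.

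Among the genes that TGFβ1 lowered, some were raised by LPS and lowered again by TGFβ1 beside it. NAV3, a microtubule-binding protein, read 92.1, 111 and 134 with TGFβ1, against 311, 356 and 497 with PBS and averaged 459 ± 170.2 with LPS+TGFβ1, against 1335 ± 85.1 with LPS. BMP2, a bone morphogenetic protein, read 47.9, 83 and 98.7 with TGFβ1, against 183, 281 and 395 with PBS and averaged 125 ± 49.3 with LPS+TGFβ1, against 539 ± 189 with LPS. HLX, a homeobox factor, read 511, 603 and 694 with TGFβ1, against 1041, 1825 and 2415 with PBS and averaged 1433 ± 577 with LPS+TGFβ1, against 2639 ± 801 with LPS. The log2 changes were -1.36 ± 0.13 (adjusted p = 3.07e-10) and -1.51 ± 0.13 (adjusted p = 3.42e-11) for NAV3, -1.33 ± 0.18 (adjusted p = 6.76e-07) and -1.74 ± 0.18 (adjusted p = 3.21e-09) for BMP2, and -1.47 ± 0.19 (adjusted p = 3.98e-07) and -0.91 ± 0.19 (adjusted p = 6.64e-04) for HLX, without and with LPS. HLX was not higher with LPS on the first side of the split, at 1765 to 2076 with LPS, against 1825 to 2415 with PBS. The second side gave 2761 to 3966 against 1041 to 1883. BMP2 read 650 to 803 with LPS, against 183 to 204 with PBS, on the first side. On the second its groups overlapped, at 338 to 423 against 254 to 395. IL18RAP, the accessory chain of the interleukin-18 receptor, changed by -1.26 ± 0.16 (adjusted p = 2.07e-07) without LPS. It averaged 708 ± 148 with LPS+TGFβ1, against 2134 ± 629 with LPS. FEZ1 changed by -1.54 without LPS and by -1.63 ± 0.11 (adjusted p = 7.17e-14) with it. NREP differed: it averaged 1790.3 ± 151 with LPS+TGFβ1, against 1692 ± 518 with LPS, a log2 change of 0.13 ± 0.12 (adjusted p = 0.475), and the effects differed by 1.64 ± 0.18 (adjusted p = 5.49e-08). In limma fits within the sides of the split, added after the data were seen, NREP changed with LPS by -0.20 (adjusted p = 0.076) on the first. On the second it rose by 0.46 (adjusted p = 5.73e-05). CAMP, SGK1, SRC, FGR, MGLL, ADAP2, CADM1, NAV3, BMP2, HLX and IL18RAP were named after their values were seen.

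The size of some changes varied between arrays of 1 group. The F test for a difference of the TGFβ1 change between the 4 chips called no probe (limma, 489 of 18388 at an unadjusted p under 0.05, 2.66%). Across the split described above, OLR1 read 603 to 632 on the 3 TGFβ1 arrays and 3277 to 3838 on the other 5. It was below background on the 3 PBS arrays of the first side and on 4 of the 5 of the second, and rose at least 8.25-fold on the first. ADGRE1, the human counterpart of the mouse macrophage marker F4/80, read 469 to 525 on the 3 TGFβ1 arrays and 81.5 to 107 on the other 5, with all PBS arrays below background, a rise of at least 6.73-fold and at least 1.44-fold. GPNMB, a glycoprotein of lipid-laden macrophages, changed by 0.41 and 1.79. CD14 changed by 3.16 and 1.21, SPP1 by 1.86 and 3.19, CXCL8 by 0.32 and 1.58, and NCF1 by 0.74 and 2.04. The changes were 3.47 and 3.62 for ALOX5 and 1.14 and 1.04 for TGFBR2. The direction was the same on both sides for each of these genes, and ADGRE1 and GPNMB were named after their values were seen.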

How the data were processed

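Total RNA of THP-1 cells was hybridised to Illumina arrays and read with BeadStudio 3.2, per the submitters' processing notes. The authors deposited 1 table of normalized intensities for all 32 arrays; the normalization method is not given in the sources used here. Another 64 columns of intensities and detection values were not used, because their names tie them to no sample. Probe genes came from the platform annotation: 21826 probes had 1 symbol and 2692 had none.

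Intensities were taken as log2(intensity + 50), and the 25% of probes with the lowest mean were left out, which left 18388. limma 3.58.1 in R 4.3.3 fitted the 4 treatment means over all 32 arrays, without a block, and p-values were adjusted by Benjamini-Hochberg over all 18388 probes with a threshold of 0.05. The test was checked on simulated data. A gene is its brightest probe. A probe is above background on an array past the mode of its dim values plus 3 SD of the values below that mode. Where a gene was below background on all 8 arrays of a group, the fold is a lower bound against the dimmest signal above background. Precision is limited by how many arrays there are.

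The replicate numbers of the titles were taken to pair the arrays. Deviations of same-numbered TGFβ1 and PBS arrays from their group means correlated at 0.143 to 0.724 in all 8 pairs. This cannot decide whether they are pairs, because same-numbered TGFβ1 and PBS arrays also lay on the same side of the split. The PBS array that correlated best with a TGFβ1 array had its number for 2 of 8. Replicate 7 lay on 1 side for TGFβ1 and PBS and on the other for LPS and LPS+TGFβ1. Named were the 15 largest rises and falls with the same sign on all 4 chips, up to 4 called members of each gene list with the largest changes, all called receptors, ligands, SMADs and feedback genes, and a short fixed list of pathway and cytokine genes. The members and lists were chosen with earlier results of these data known. Alternatives were other offsets, filters, scalings, blocks and array weights, and fits that left out replicates, chips or the arrays that stood apart.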

Additional observations from a re-analysis of the deposited data

Results flagged for a closer look

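In 32 of 292 sets of 8 arrays, a set being 1 gene in 1 group, 1 array lay apart from the other 7 by more than Dixon's critical share of the whole range, on the log2 scale. Chance gives such a gap in about 1 in 20 sets, and the sets are not independent. Most of these values belong to TGFβ1 replicate 6 and PBS replicate 8, the arrays low in small mitochondrial subunits. Any part of RNA quality in this was not tested.

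Both arrays were the lowest of their group for several genes. TYROBP read 9366 on TGFβ1 replicate 6 and 2556 on PBS replicate 8. APOC1 read 1231 on the TGFβ1 array and 176 on the PBS array, LTC4S 2265 and 349, and ENG 547 and 242 in the same order. MT1E read 675 on TGFβ1 replicate 6 and 1039.9 on PBS replicate 8, and MTF1 read 377 and 369. TGFBR3 was instead highest on both, at 213 on the TGFβ1 array and 428 on the PBS array.

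For 7 genes the gap was past that share on the PBS side only, with PBS replicate 8 lowest for MT2A at 652, MT1G at 635, MT1H at 143, MT1X at 576, RGS10 at 919, CEBPA at 6487 and HLX at 1041; TGFβ1 replicate 6 was also the lowest of its group in these genes, by a smaller share. PBS replicate 8 was highest for ACVR1 at 445, BMPR2 at 361, ANTXR1 at 247 and CD55 at 396. TGFβ1 replicate 6 was highest for ALOX5 at 8245. PBS replicate 1 was highest for CXCL8 at 8514, NAV3 at 497 and CAV1 at 479. Among other TGFβ1 arrays, replicate 7 was lowest for BHLHE40 at 3284, replicate 1 for SMAD6 at 520.0 and replicate 3 for SKIL at 6.38, a value below background.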

How the results depend on the processing

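All 146 called genes among the 158 compared kept their direction under all 31 alternatives, and 118 of them also kept their call under every alternative other than fits to a single chip; 24 kept it under all. The number of probes called higher was 1386 and came to 123 within chip 1 and 120 within chip 4, and the number at least 2-fold higher, 278, came to 120 and 104 there. Probes called lower numbered 1048, and 19, 556 and 12 within chips 1, 3 and 4, 622 and 641 with chip 1 or chip 3 left out, 2411 with array weights, 1816 with the data-derived split as a block and 2062 within its larger side. The probes at least 2-fold lower, 65, came to 19 within chip 1 and 8 within chip 4. A single chip leaves 2 arrays a group.

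With the replicate number as a block 1738 probes were called lower, and 2038 in the same fit to the 16 TGFβ1 and PBS arrays only, an alternative added after the data were seen, as was leaving out the arrays that stood apart. Of the genes named in the report the block changed the call of CDH1, which passed; in the fit to 16 arrays TLR4 also passed, with a fall, as it did within chip 2, with the data-derived split as a block and within its smaller side. CDK1, CXCR2, HK2, HLA-DMA, HLA-DMB, LPL and RUNX3 each lost their call without at least 1 of the replicate numbers, and CDK1, CDKN1A, CDKN2B, CEBPA and CXCR2 after scaling to a common median. Leaving out each replicate number in turn gave 1174 to 1298 probes higher, 761 to 1013 lower, 273 to 284 at least 2-fold higher and 60 to 66 at least 2-fold lower. In these fits the shares of raised and lowered probes that changed the same way with LPS ran from 71.2 to 75.9% and from 60 to 64.6%. The share higher than with LPS ran from 64.8 to 66.2%. Other settings moved them further. The lowered share was 52.31% after scaling to a common median and 75.38% with the replicate block. With that block the raised share was 81.65% and the share higher than with LPS 68.71%. Higher calls made up 56.9% of all calls, 50.9% with the replicate block, 50.1% after quantile normalization, 60.5% after scaling to a common median and 44.9% with array weights. The cause of these shifts was not tested. A normexp background correction was not run, since the unnormalized columns could not be tied to samples.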
